A study of Homo sapiens with 6 samples.

Results

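The NF-kB subunits and their IkB inhibitors were taken here as 10 genes, found by symbol among the 54628 genes listed for each library: the subunit genes RELA, NFKB1, REL, RELB and NFKB2, the cytoplasmic inhibitor genes NFKBIA, NFKBIB and NFKBIE, and the nuclear IkB genes NFKBIZ and BCL3. The genes were listed by name, with earlier results of these data known. Their messenger RNA was measured in U87 cells, an established human glioblastoma line that the labels call tumor cells of a glioma, after the cells had been separated by flow cytometry from a co-culture. The series title names astrocytes as the source of shuttled mitochondria. Cycling cells with mitochondria received (received, n = 3) were set against cycling cells without (not received, n = 3). Both groups came through the co-culture and the sort, and the labels name no drug, no engineered allele and no time point for either. The gates that defined cycling cells or receipt of mitochondria, and the make-up of the co-culture, were not given in the sources used here. All libraries came from 1 cell line, and no label speaks of separate cultures, so the p-values below measure only the spread between these samples, which may be technical.

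NF-kB proteins are transcription factors that bind DNA as dimers. In the canonical pathway, the IKK complex marks IkB proteins for destruction and frees dimers of RELA and p50, the product of NFKB1. In the non-canonical pathway, the kinase NIK (gene MAP3K14) drives the processing of p100, the product of NFKB2, to p52, which acts with RELB; p100 itself also holds dimers back. NFKB2, RELB, NFKBIA, NFKBIE, NFKBIZ and BCL3 are known target genes of NF-kB as well as parts of it, and newly made IkB alpha, the product of NFKBIA, ends the canonical response.

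RefSeq promoter windows of GRCh38.p14, which run from 250 bases before to 50 bases after a start site, were found for 8 of the 10 genes, with 14 windows in all. RELB and NFKBIE had none in the table. The windows were searched on both strands for the NF-kB consensus, a 10-base motif, and for the looser GGGNNNNNCC. Every match of the consensus is also a match of the looser motif. At least 1 match of the NF-kB consensus was in 9 of the 14 windows, and 5.91% of all 35116 windows of that length hold one. The looser motif was in all 14 windows, against 58.7% of all windows. G and C made up 51.3% to 80% of the bases of these 14 windows, and all windows were not matched to them for this. Stretches around the matches are shown for NFKB1 of the canonical pair, for NFKB2 of the non-canonical pair, for the inhibitor NFKBIA and for the nuclear IkB gene BCL3, because the contrast between these groups of genes is what the values below turn on. Capitals mark the match, or overlapping matches, of the NF-kB consensus on either strand that each stretch was drawn around. The first 2 NFKB2 stretches share bases, and each shows part of the other's match in lower case. Every stretch is written 5′ to 3′ on the strand of its gene.
NFKB1, chr4:102501285-102501344, plus strand: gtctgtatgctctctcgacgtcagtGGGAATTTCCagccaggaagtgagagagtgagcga
NFKB2, chr10:102394446-102394506, plus strand: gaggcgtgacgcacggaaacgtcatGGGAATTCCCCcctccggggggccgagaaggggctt
NFKB2, chr10:102394475-102394534, plus strand: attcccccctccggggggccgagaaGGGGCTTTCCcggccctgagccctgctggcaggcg
NFKB2, chr10:102395504-102395563, plus strand: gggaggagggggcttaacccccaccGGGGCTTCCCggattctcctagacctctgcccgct
NFKB2, chr10:102395659-102395718, plus strand: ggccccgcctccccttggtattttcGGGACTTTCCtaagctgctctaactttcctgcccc
NFKBIA, chr14:35404796-35404855, minus strand: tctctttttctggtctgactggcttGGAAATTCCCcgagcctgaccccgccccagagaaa
BCL3, chr19:44748685-44748744, plus strand: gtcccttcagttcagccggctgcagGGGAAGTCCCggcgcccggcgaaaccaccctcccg
The 2 RELA windows held no match of the consensus, and the REL window held 2 overlapping matches. A match is a run of letters and does not show that a factor binds there; no binding was measured in these samples.

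Totals ran from 17879552 to 46392491 counts per library, and 14100 genes with enough counts were tested. Levels are CPM, each gene's counts scaled to a common library size with TMM factors, and log2 fold changes are received over not received, with the standard error (SE). P-values are from edgeR's quasi-likelihood test with Benjamini-Hochberg adjustment over all genes tested, and a gene was called at an adjusted p under 0.05. By this rule 18.9% of tested genes were called, 9.21% higher and 9.67% lower in received cells. Not-received replicate 2, the deepest library, stood apart from the other 2 of its group (first principal component 46.3, against 15.2 and 16.4), so each change was also computed without it. The cells carried markers of a glioma line, among them VIM at a mean of 4680 CPM in received libraries, against 3918 CPM in not-received ones.

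Of the 10 genes, 6 rose in received cells (RELB, NFKB2, NFKBIA, NFKBIE, NFKBIZ and BCL3), none fell, 3 were not called (RELA, NFKB1 and REL) and NFKBIB could not be tested. The background for such a count is 9.21% of tested genes called higher and 9.67% called lower. No gene of the family was lower at an unadjusted p under 0.05 either, and DESeq2 and limma-voom gave the same 6 higher and 0 lower. All 6 genes that rose had every received library above every not-received library, a pattern seen in 19.5% of tested genes, and none had every received library below, which was also seen in 19.5%. The family's median log2 fold change was 0.35, beside -0.001 over all genes tested. In the ranking of the 14100 tested genes by absolute log2 fold change, NFKB2 was at 1175 and RELB at 1447, while NFKBIZ, the smallest of the changes called, was at 3980.

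**Figure D1:**
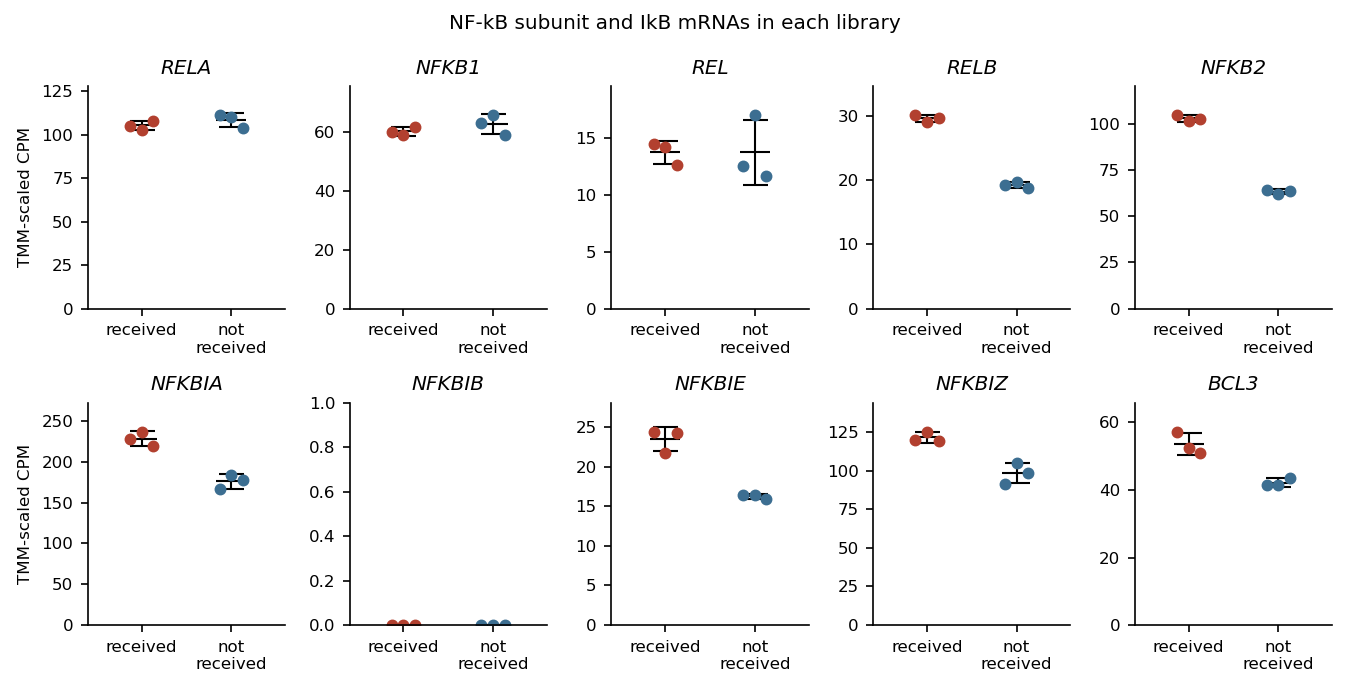
TMM-scaled CPM of the 10 genes in every library, with received libraries left of not-received ones in each panel (points are libraries, the horizontal mark and bar are the mean and SD, n = 3, and the vertical axes start at 0 and differ between panels). The points of the groups are apart for RELB, NFKB2, NFKBIA, NFKBIE, NFKBIZ and BCL3 and overlap for RELA, NFKB1 and REL; NFKBIB lies at 0 throughout.

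RELA, which carries the main activation domain of the canonical dimer, was at 105.0, 102.8 and 107.9 CPM in received replicates 1, 2 and 3, and at 111.2, 109.8 and 103.7 CPM in not-received replicates 1, 2 and 3. The ranges overlapped, with the highest received library above the lowest not-received one. Its log2 fold change was -0.04 ± 0.06 (SE), with a 95% interval of -0.17 to 0.08 and an adjusted p of 0.660.

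NFKB1 encodes p105, the precursor of p50. Its level was 59.87, 58.79 and 61.70 CPM in received libraries, against 63.01, 65.69 and 59.04 CPM in not-received libraries. Here too the groups overlapped, and the log2 fold change was -0.06 ± 0.07 (SE; 95% interval -0.20 to 0.08; adjusted p = 0.569). For both canonical genes the interval reached no further than 0.08 upwards, so it did not include changes of the size measured for RELB or NFKB2.

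REL, a subunit best known from lymphocytes, had the fewest reads of these 9 tested genes, with 310, 264 and 226 counts in received libraries and 230, 771 and 243 counts in not-received libraries. That was 14.42, 14.16 and 12.56 CPM in received cells, against 12.49, 16.98 and 11.65 CPM in not-received cells. Not-received replicate 2 held the highest value of all, and the other 2 libraries of its group held the lowest. The log2 fold change was -0.02 ± 0.14 (SE; 95% interval -0.31 to 0.28; adjusted p = 0.951). Without not-received replicate 2 it was 0.19 (adjusted p = 0.283), and without received replicate 3 it was 0.05, so the sign of this value was not stable, and it was called in none of the alternatives.

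RELB, the subunit that pairs with p52, was at 30.10, 29.02 and 29.63 CPM in received libraries and at 19.23, 19.75 and 18.69 CPM in not-received libraries. The lowest received value was well clear of the highest not-received value. This was a log2 fold change of 0.62 ± 0.08 (SE; 95% interval 0.46 to 0.78; adjusted p = 1.06e-04), a 1.54-fold increase.

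NFKB2, which encodes p100 and through it p52, showed the largest change among the 9 genes tested. It stood at 104.6, 101.4 and 102.2 CPM in received libraries, against 64.21, 61.90 and 63.60 CPM in not-received libraries. Within each group the 3 libraries lay close together, with means of 102.7 ± 1.67 CPM in received cells, against 63.2 ± 1.19 CPM in not-received cells (SD, n = 3 each). The log2 fold change was 0.70 ± 0.06 (SE; 95% interval 0.57 to 0.83; adjusted p = 4.73e-06), a 1.63-fold increase.

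NFKBIA encodes IkB alpha, the inhibitor that NF-kB induces quickly to close its own loop. It was the most abundant of the 10, at 228.5, 237.2 and 219.1 CPM in received libraries and 166.5, 184.1 and 177.9 CPM in not-received libraries. The groups did not overlap. Its log2 fold change was 0.37 ± 0.06 (SE; 95% interval 0.24 to 0.50; adjusted p = 9.09e-04), a 1.295-fold increase.

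NFKBIE encodes IkB epsilon, another cytoplasmic inhibitor under NF-kB control. Counts gave 24.42, 21.72 and 24.23 CPM in received libraries, against 16.35, 16.41 and 15.91 CPM in not-received libraries. All received values were above all not-received ones, which were tightly grouped. In the fit the log2 fold change was 0.53 ± 0.08 (SE; 95% interval 0.35 to 0.71; adjusted p = 8.86e-04), a 1.45-fold increase.

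NFKBIB, the gene of IkB beta, was listed at 0 counts in all 6 libraries. A count of 0 allows up to 3 counts, which is 0.0647 CPM at the highest depth here and 0.168 CPM at the lowest; this limit covers counting error only. The listed 0 is not a measure of absence: RCC2 and ATP5IF1, which most dividing cells transcribe, and ID3 were also listed at 0 in all 6 libraries (3 genes named with their values already seen). In the RefSeq table no other gene overlaps NFKBIB, and the cause of its listed 0 was not tested. The handling of reads that match more than 1 gene was not given in the sources used here, and NFKBIB is left out of every comparison below.

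NFKBIZ encodes IkB zeta, an IkB protein of the nucleus that takes part in switching on secondary response genes. It was at 119.9, 125.4 and 119.4 CPM in received libraries and at 91.64, 104.7 and 98.49 CPM in not-received libraries. The groups were apart, with not-received replicate 2 nearest to the received ones. The log2 fold change was 0.30 ± 0.06 (SE; 95% interval 0.17 to 0.44; adjusted p = 0.00491). In the RefSeq table this gene overlaps NXPE3, which had 1040 to 1285 counts in received libraries and 1132 to 2749 counts in not-received libraries, so the level of NFKBIZ is uncertain where reads could fall to either gene.

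BCL3 encodes a nuclear IkB protein that binds p50 and p52 dimers. Its level was 57.32, 52.46 and 51.08 CPM in received libraries, against 41.50, 41.45 and 43.66 CPM in not-received libraries. No received library reached down to the not-received values, and the log2 fold change was 0.35 ± 0.07 (SE; 95% interval 0.19 to 0.50; adjusted p = 0.00477).

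All 6 calls were made in each of the 13 alternative analyses, 6 of which left out 1 library. The calls nearest to the threshold were those of BCL3 without received replicate 1 (adjusted p = 0.0432) and of NFKBIZ without received replicate 2 (adjusted p = 0.0377). RNA came from whole sorted populations, so more cells that transcribe a gene and more RNA of it per cell cannot be told apart.

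**Figure D2:**
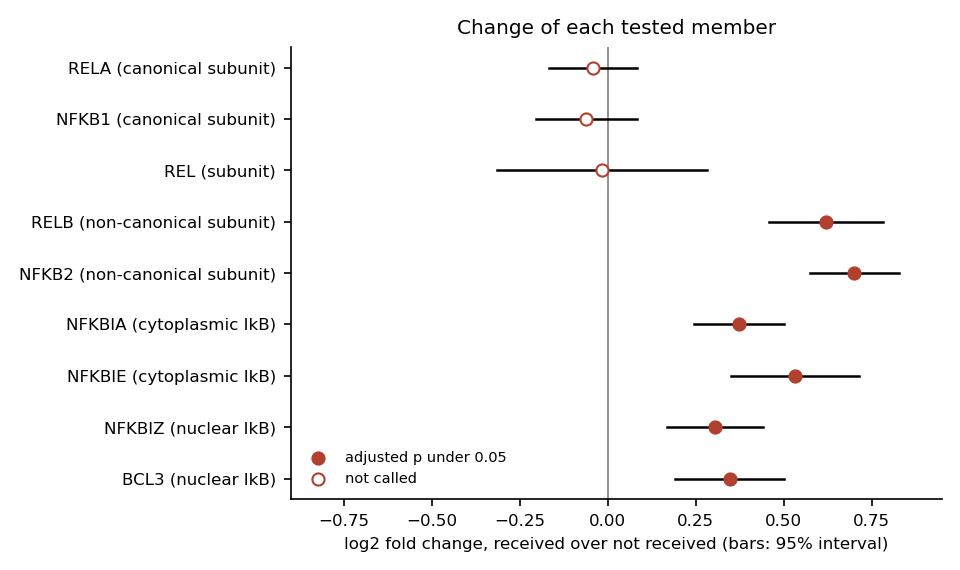
Log2 fold change, received over not received, of the 9 genes tested, with 95% intervals and roles in brackets (filled points have an adjusted p under 0.05 in edgeR, open points do not). The intervals of RELB (0.46 to 0.78) and NFKB2 (0.57 to 0.83) lie above those of RELA, NFKB1 and REL, which include 0.

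The contrast between the non-canonical and the canonical genes was then taken within each library, as the mean log2 count of RELB and NFKB2 minus that of RELA and NFKB1. Such a ratio uses counts of the same library, so depth and scaling cancel; no p is given, because the genes were chosen with results of these data known. It was -0.499, -0.519 and -0.569 in received libraries, against -1.252, -1.280 and -1.182 in not-received libraries. The gap between the groups was far wider than the range within either, with means of -0.53 ± 0.04 in received cells and -1.24 ± 0.05 in not-received cells (SD, n = 3 each). The difference of 0.71 is a 1.64-fold shift towards RELB and NFKB2, and it was 0.69 without not-received replicate 2.

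The shift was found in both comparisons of a non-canonical with a canonical gene. These are ratios of messenger RNA counts. Proteins, the processing of p100 and the make-up of dimers were not measured in these libraries. The log2 count ratio of NFKB2 to NFKB1, the genes of both precursor proteins, was 0.77 ± 0.04 in received cells and 0.02 ± 0.10 in not-received cells (SD, n = 3 each), a 1.69-fold difference. That of RELB to RELA was -1.83 ± 0.03 in received cells and -2.49 ± 0.03 in not-received cells, a 1.58-fold difference. Within each pair the ratio moved less. RELA to NFKB1 was 0.81, 0.81 and 0.81 in received libraries, against 0.82, 0.74 and 0.81 in not-received libraries, and the groups overlapped. NFKB2 to RELB was 1.80 ± 0.01 in received cells and 1.72 ± 0.06 in not-received cells, a difference of 0.08 on the log2 scale with no overlap.

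The messenger RNAs of the feedback inhibitors were higher relative to the canonical pair and lower relative to the non-canonical pair in received cells. The log2 count ratio of NFKBIA to RELA was 1.122, 1.207 and 1.022 in received libraries and 0.582, 0.746 and 0.779 in not-received libraries. The messenger RNA of NFKBIA was thus higher relative to that of RELA in every received library, by 1.33-fold in the mean. Relative to RELA, NFKBIE was 1.49-fold, NFKBIZ 1.27-fold and BCL3 1.31-fold higher in received cells. Against the non-canonical pair the order was opposite: the log2 count ratio of NFKBIA to NFKB2 was 1.127, 1.227 and 1.100 in received libraries, against 1.375, 1.572 and 1.484 in not-received libraries. NFKBIA and NFKBIE together, relative to RELB and NFKB2, were at 0.408 ± 0.005 in received cells and 0.616 ± 0.042 in not-received cells (SD, n = 3 each), or 0.865-fold.

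**Figure D3:**
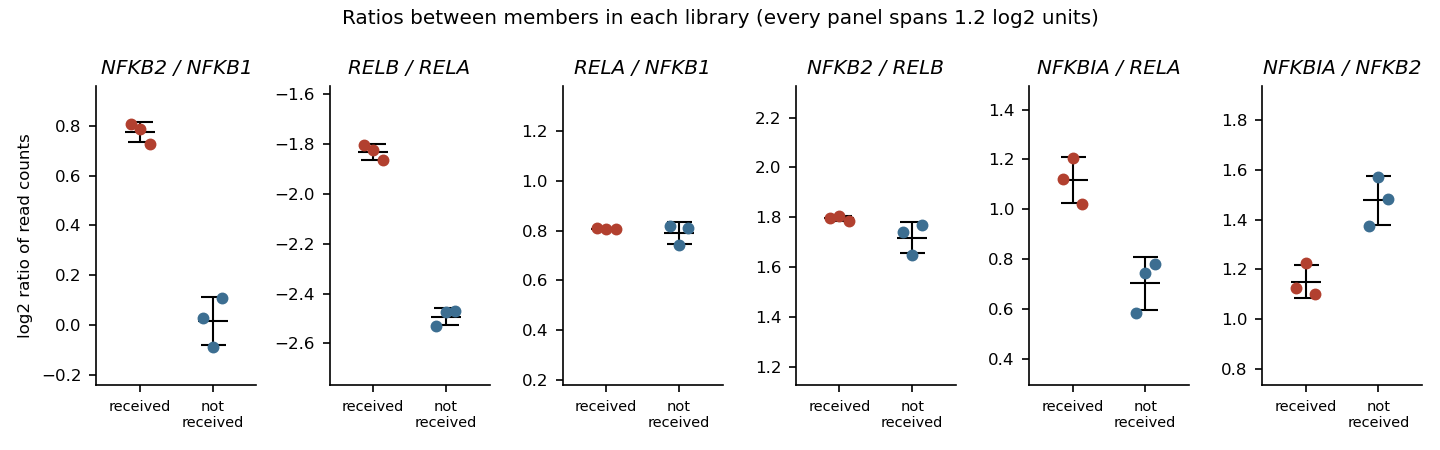
Log2 ratio of read counts between pairs of genes in each library, with received libraries left of not-received ones (points are libraries, the mark and bar are the mean and SD, n = 3, and every panel spans the same range of the log2 scale). The groups are apart for NFKB2 to NFKB1 and RELB to RELA, overlap for RELA to NFKB1, and for NFKBIA are apart upwards relative to RELA and downwards relative to NFKB2.

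Levels can be compared between genes only per length, here as CPM per kilobase of merged exons of GENCODE v29, an annotation that is not stated to be the authors' own. In received cells the order of these levels was NFKBIA (120.1 ± 4.79), RELA (31.1 ± 0.76), NFKBIZ (29 ± 0.79), NFKB2 (27.9 ± 0.45), BCL3 (26.3 ± 1.61), RELB (12.9 ± 0.24), NFKB1 (10.9 ± 0.27), NFKBIE (9.09 ± 0.58) and REL (1.22 ± 0.09) CPM per kilobase (SD, n = 3 each). In not-received cells it was NFKBIA (92.7 ± 4.70), RELA (31.95 ± 1.18), NFKBIZ (23.45 ± 1.56), BCL3 (20.7 ± 0.62), NFKB2 (17.2 ± 0.32), NFKB1 (11.3 ± 0.61), RELB (8.36 ± 0.23), NFKBIE (6.29 ± 0.11) and REL (1.22 ± 0.25) CPM per kilobase. Neighbours in these orders did not overlap between libraries of the same group, apart from NFKB2 and BCL3 in received cells. The places of RELB and NFKB1 were exchanged between the groups, but that rests on the length used: with the longest transcript of each gene NFKB1 (14.7 CPM per kilobase) stayed above RELB (12.9 CPM per kilobase) in received cells too. REL was the lowest subunit in every library.

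As shares of the summed per-kilobase level of the 5 subunit genes, RELB and NFKB2 together made up 49.0%, 48.7% and 47.9% in received libraries and 36.3%, 35.7% and 37.5% in not-received libraries. NFKB2 alone took 33.2% ± 0.45 in received cells and 24.5% ± 0.95 in not-received cells (SD, n = 3 each). RELA took 37.0% ± 0.50 in received cells and 45.6% ± 0.49 in not-received cells, a lower share although its own level was not called changed. Shares of a sum must move together, so these are a second view of the same counts, and with longest transcripts the share of RELB and NFKB2 was 46.7% ± 0.58 in received cells and 34.7% ± 0.94 in not-received cells.

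**Figure D4:**
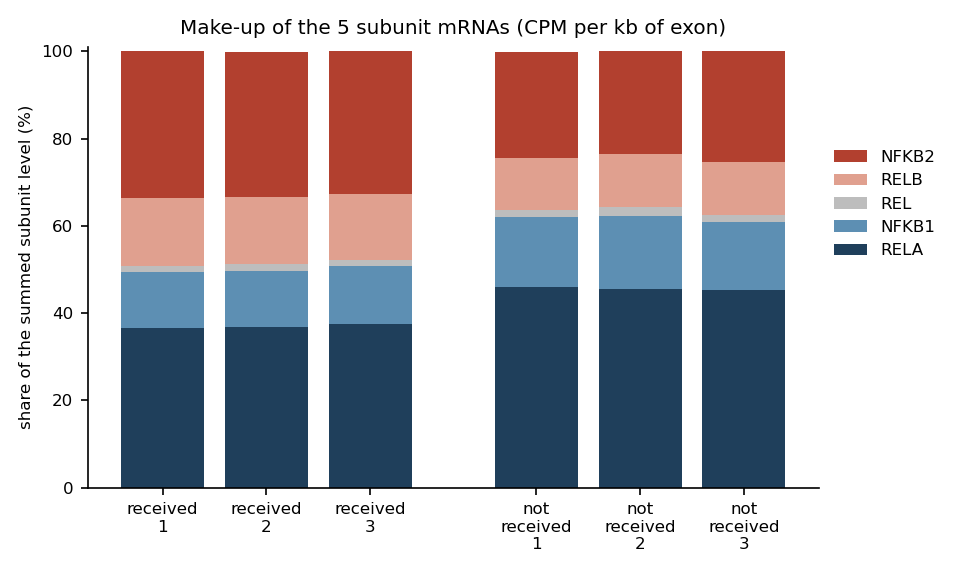
Share of each subunit gene in the summed level of all 5 (CPM per kilobase of merged exons, in percent), 1 bar per library, received libraries on the left. The upper parts of the bars, RELB and NFKB2, take 47.9% to 49.0% in received libraries and 35.7% to 37.5% in not-received libraries.

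Likeness of pattern to NFKB2 or RELB over the 6 libraries was the root mean square difference of log2 CPM. Each gene was centred on its own mean. For each of these genes, 11536 other tested genes with an average log2 CPM of 1 or more were ranked. Genes with LOC or clone names were left out. Nearest to NFKB2 were CTSC (0.0427), G0S2 (0.0439), SOX4 (0.0478), PTGR2 (0.0481) and ODC1 (0.0489), and RELB followed at rank 7 (0.0532). Nearest to RELB were TMEM129 (0.0302), PIK3CD (0.0445), NFKB2 (0.0532), RIPOR3 (0.0575) and FAS (0.0595), with NFKBIE at rank 10 (0.0624). The measure mostly reads the size of the difference between the groups: for NFKB2, NFKBIE was at rank 54, NFKBIA at 392, BCL3 at 447 and NFKBIZ at 766, while RELA, NFKB1 and REL were at ranks 6040, 6497 and 6827.

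Upstream of the subunits, the genes of the signalling machinery are given by list, each count beside the shares over all tested genes (9.21% higher, 9.67% lower). Across 9 genes of the IKK complex and its activating kinases, 0 were higher and 2 (22.2%) lower by edgeR, beside 9.21% higher and 9.67% lower over all tested genes, with a median log2 fold change of -0.07; 1 was higher at an unadjusted p under 0.05, and DESeq2 and limma-voom called 0 higher. CHUK and IKBKB, the catalytic subunits that phosphorylate p100 and IkB, were not called, with log2 fold changes of 0.02 ± 0.07 and -0.04 ± 0.07 (SE). MAP3K3, a kinase that can activate IKK, fell to 33.5 ± 2.80 CPM in received cells, against 43.0 ± 1.84 CPM in not-received cells (SD, n = 3 each; log2 fold change -0.36 ± 0.08 SE; adjusted p = 0.00712). Without received replicate 1 it was no longer called (adjusted p = 0.0615). IKBKG, the regulatory subunit NEMO, was lower too (log2 fold change -0.32 ± 0.08 SE; adjusted p = 0.0163). That call was lost without received replicate 1 (adjusted p = 0.107) or 2 (adjusted p = 0.0983), and IKBKG has a near-identical pseudogene copy, so its counts are uncertain.

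In the non-canonical pathway itself, 13 genes of ligands, receptors, adaptors and the kinase NIK were listed and 9 could be tested. None rose (0 by edgeR, DESeq2 and limma-voom, and 0 at an unadjusted p under 0.05), 2 fell (22.2%), and the median log2 fold change was -0.21. In a list of 9 genes, no call upwards is near the 9.21% called higher over all tested genes; 9.67% were called lower. MAP3K14, the gene of NIK, was at 31.5 ± 1.99 CPM in received cells, against 28.45 ± 2.315 CPM in not-received cells (SD, n = 3 each; log2 fold change 0.15 ± 0.08 SE; adjusted p = 0.239). BIRC2 encodes cIAP1, a ubiquitin ligase of the complex that keeps NIK low. It was at 80.81, 85.45 and 84.49 CPM in received libraries and at 145.5, 139.3 and 132.0 CPM in not-received libraries, with no overlap (log2 fold change -0.73 ± 0.06 SE; adjusted p = 4.31e-06). BIRC3, the gene of the paralogous cIAP2 and itself an NF-kB target, was at 43.8 ± 1.78 CPM in received cells, against 23.2 ± 1.68 CPM in not-received cells (log2 fold change 0.91 ± 0.08 SE; adjusted p = 7.02e-06; chosen after its values were seen). TRAF2 and TRAF3, the other parts of that complex, were not called (log2 fold changes -0.07 ± 0.09 and -0.09 ± 0.06 SE). LTBR, the lymphotoxin beta receptor, was called lower (log2 fold change -0.22 ± 0.07 SE; adjusted p = 0.0456), but in only 4 of the 13 alternatives. The ligand genes LTB, TNFSF11 and CD40LG were listed at 0 counts in all libraries, which, as for NFKBIB, is not a measure of absence.

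Among 16 further negative regulators, of which 15 were tested, 2 rose (13.3%) and 0 fell by edgeR, near the 9.21% higher and beside the 9.67% lower over all tested genes, with a median log2 fold change of 0.02. DESeq2 and limma-voom also called 2 and 0, and 1 gene was lower at an unadjusted p under 0.05. Both genes that rose are known NF-kB targets that limit the response. TNFAIP3, which encodes the ubiquitin-editing enzyme A20, was at 33.08, 29.88 and 29.74 CPM in received libraries, against 21.19, 24.25 and 21.52 CPM in not-received libraries (log2 fold change 0.46 ± 0.08 SE; adjusted p = 0.00202). ZC3H12A, the gene of the RNase regnase-1, was at 105.7 ± 4.85 CPM in received cells, against 77.4 ± 3.07 CPM in not-received cells (SD, n = 3 each; log2 fold change 0.45 ± 0.06 SE; adjusted p = 2.98e-04). NFKBID, the gene of a further nuclear IkB protein, was not called (log2 fold change 0.21 ± 0.13 SE; adjusted p = 0.278).

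The adaptors and ubiquitin ligases upstream of IKK had 2 of 17 tested genes higher (11.8%), near the 9.21% over all tested genes, and 4 lower (23.5%), beside 9.67% over all tested genes; the median log2 fold change was -0.08. RIPK2, a kinase of the NOD receptors, was at 71.4 ± 0.69 CPM in received cells, against 52.4 ± 3.28 CPM in not-received cells (SD, n = 3 each; log2 fold change 0.45 ± 0.07 SE; adjusted p = 5.85e-04). IRAK2, a kinase of the interleukin-1 and Toll-like receptors, was higher as well (log2 fold change 0.40 ± 0.09 SE; adjusted p = 0.00799), though not without received replicate 2 (adjusted p = 0.0563). MALT1, a protease and scaffold of antigen receptor signalling, was at 25.5 ± 1.08 CPM in received cells, against 35.4 ± 1.199 CPM in not-received cells (log2 fold change -0.47 ± 0.07 SE; adjusted p = 8.535e-04). The call of RBCK1, a subunit of the linear ubiquitin ligase (log2 fold change -0.32 ± 0.09 SE; adjusted p = 0.0268), was lost without any 1 of the 3 received libraries or without not-received replicate 1, with adjusted p up to 0.134. The count of lower genes in this list fell to 1 without received replicate 2 or 3 and to 2 without received replicate 1 or not-received replicate 1.

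For the ligase that marks phosphorylated IkB for destruction, 0 of 8 genes were called by edgeR, DESeq2 or limma-voom, and 0 had an unadjusted p under 0.05. In a list of 8 genes, no call is near the 9.21% called higher and 9.67% called lower over all tested genes. The smallest p was that of FBXW11, 1 of its substrate receptors (log2 fold change 0.13 ± 0.06 SE; adjusted p = 0.171). Of 5 genes of the IKK-related kinases and their adaptors, 0 were called higher and 1 (20%) lower by edgeR, beside 9.21% higher and 9.67% lower over all tested genes. The lower gene was TBKBP1, a binding partner of the kinase TBK1 (log2 fold change -0.33 ± 0.11 SE, edgeR adjusted p = 0.0439). It was called in only 6 of the 13 alternatives.

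Downstream, 30 of 38 genes on a list of other NF-kB targets could be tested. Of these, 16 rose (53.3%), 2 fell (6.67%) and 12 were not called, beside 9.21% higher and 9.67% lower over all tested genes. Their median log2 fold change was 0.55. Among the untested genes, TNF, CCL5 and SELE were listed at 0 counts in all libraries. As for NFKBIB, such a listed 0 is not a measure of absence. Of the called genes whose average log2 CPM was 1 or more, the 4 with the largest changes encode secreted proteins of inflammation: IL1B, the gene of interleukin-1 beta (log2 fold change 2.90 ± 0.19 SE; adjusted p = 4.08e-04), CSF2, a colony-stimulating factor (2.12 ± 0.17; adjusted p = 4.31e-06), and the neutrophil chemokines CXCL8 (1.73 ± 0.13; adjusted p = 1.598e-04) and CXCL2 (1.602 ± 0.07; adjusted p = 2.29e-08). These changes were all larger than that of any subunit or inhibitor gene. Below that level, MMP9, which encodes a secreted protease, was at 2.70 ± 0.46 CPM in received cells, against 0.222 ± 0.053 CPM in not-received cells (SD, n = 3 each; log2 fold change 3.51 ± 0.33 SE; edgeR adjusted p = 1.36e-05; named after its values were seen). The genes that fell were BCL2L1, an inhibitor of apoptosis (-0.33 ± 0.06; adjusted p = 0.00178), and GADD45B, a stress response gene (-0.47 ± 0.11; adjusted p = 0.00884), both named after their values were seen. Target genes of the non-canonical pathway known from lymphoid organs could hardly be measured, with 1 of 6 tested. That gene, TNFSF13B (BAFF), was at 1.54 ± 0.23 CPM in received cells, against 0.755 ± 0.28 CPM in not-received cells (SD, n = 3 each), and it was not called (log2 fold change 0.97 ± 0.33 SE; adjusted p = 0.0527, and between 0.0332 and 0.171 over the alternatives).

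**Figure D5:**
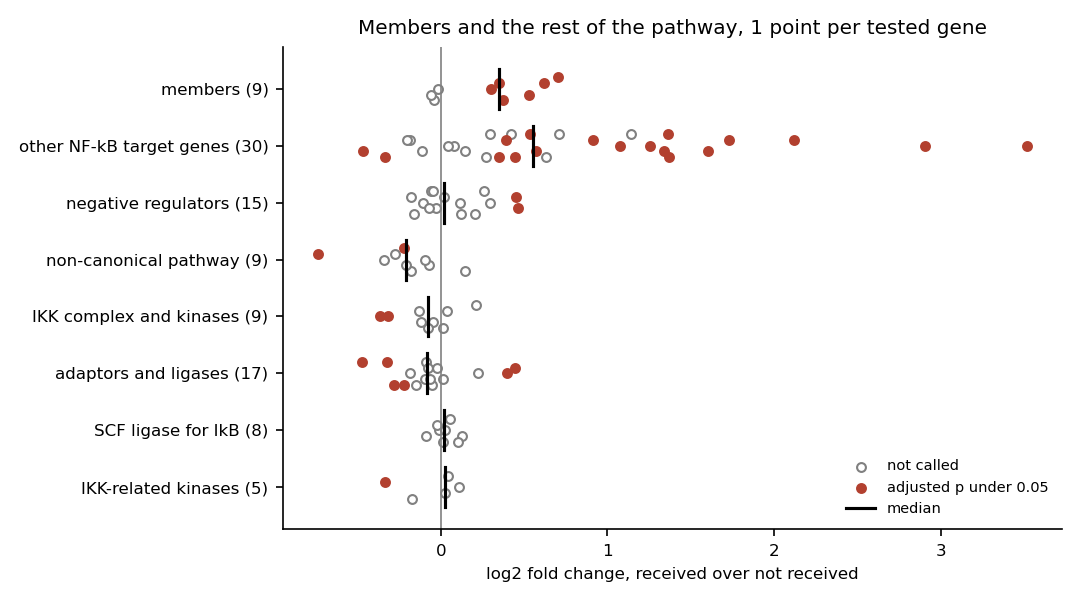
Log2 fold change, received over not received, of every tested gene of the family and of 7 lists around it, 1 point per gene (red points have an adjusted p under 0.05 in edgeR, open points do not, black bars are medians, and the number of genes is in brackets). The medians of the family (0.35) and of the other NF-kB targets (0.55) lie to the right of 0. Those of the IKK complex (-0.07), the adaptors and ligases (-0.08) and the non-canonical pathway (-0.21) lie to the left. The remaining medians are 0.018 to 0.025.

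Markers of other cell types that a co-culture or a sort can carry over were also summed. Those of astrocytes (9 genes) summed to 71.2 to 82.4 CPM in received libraries and 84.3 to 93.9 CPM in not-received libraries, with AQP4, ALDH1L1 and GJB6 at 0 and nearly all of the sum in ALDOC and SLC1A3. Markers of microglia and macrophages (8 genes) summed to 20.3 to 22.8 CPM in received libraries and 20.1 to 21.5 CPM in not-received libraries. Nearly all of that was CSF1R, while AIF1, TYROBP, P2RY12 and CX3CR1 were at 0. Markers of lymphocytes (6 genes) summed to 41.2 to 45.65 CPM in received libraries and 46.9 to 64.4 CPM in not-received libraries, nearly all of it NCAM1, which was called lower in received cells, with CD3E, CD3D and MS4A1 at 0. For these markers too, a listed 0 is not a measure of absence. No list had a higher sum in all received libraries, and the part of other cells in the results was not tested beyond these values.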

How the data were processed

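Messenger RNA, captured on poly-T beads, was sequenced as 150 bp paired-end reads from 6 libraries of sorted U87 cells, per the labels' protocols. The authors deposited raw, unnormalized read counts for each gene symbol. Tools named in the submitters' processing notes are DESeq and R 3.6.1. Aligner, genome build, annotation, strandedness and the handling of shared reads were not given in the sources used here. Genes were kept with filterByExpr (14100 of 28833 with a count, holding 99.8% to 99.9% of counts), TMM-scaled and tested with glmQLFit (robust) and glmQLFTest of edgeR 4.0.16 in R 4.3.3, over all 6 libraries with the group as the single term. Replicates had a common coefficient of variation of 9.47%. Each SE was taken as the size of the log2 fold change over the square root of F. The steps were tested on simulated data.

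DESeq2 1.42.0, limma-voom (limma 3.58.1), other scaling factors, other filters, a replicate block and leaving out each library were the alternatives. The members and gene lists were chosen with earlier results of these data known. Named genes are all members, up to 4 called genes of each list with the largest absolute fold change and an average log2 CPM of at least 1 (the smallest p where none was called), and the 5 genes most like NFKB2 and RELB; others are marked where they were chosen with values in view. CHUK, IKBKB, MAP3K14, TRAF2, TRAF3, NFKBID and genes at 0 are given outside this rule, for their roles. Replicates of a group differed by more than sampling noise (chi-square 3.40 to 22.1 per gene), so none was merged as a library deposited again; this does not show separate cultures. Promoter sequences and overlapping genes come from RefSeq tables of GRCh38.p14. The level of 1 marker gene is not reported here.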

Additional observations from a re-analysis of the deposited data

How the results depend on the processing

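The 6 genes called higher were called under all 13 alternatives, with log2 fold changes of 0.60 to 0.66 (RELB), 0.68 to 0.74 (NFKB2), 0.34 to 0.41 (NFKBIA; 0.335 to 0.410), 0.51 to 0.59 (NFKBIE), 0.26 to 0.35 (NFKBIZ) and 0.30 to 0.39 (BCL3; 0.301 to 0.385); RELA, NFKB1 and REL were called under none. The shift of RELB and NFKB2 against RELA and NFKB1 was 0.69 to 0.74 when 1 library was left out. REL, which was never called, changed sign to 0.02 with library size alone (0.0233), to 0.01 with a replicate block (0.0078), and ran from -0.12 to 0.19 when 1 library was left out. Over all genes, no low-count filter gave 2084 lower calls in place of 1364. Leaving out 1 library gave 604 to 1356 higher calls and 691 to 1579 lower calls. The low ends came without received replicate 1, 2 or 3 (606, 604 and 661 higher; 735, 691 and 748 lower). With library size alone 60.3% of calls were higher, in place of 48.8%, and the median of all genes moved by 0.037. The replicate numbers are not said to be pairs, and deviations of same-numbered libraries from their group means correlated at -0.20, -0.08 and 0.05. With 3 libraries per group, these values cannot show whether the samples were paired. The fit with the replicate block gave 1252 higher and 1384 lower genes and the same 6 of the 10 genes higher. The SE was 0.14 for REL, which ran from 11.65 to 16.98 CPM in not-received libraries. It was 0.33 for TNFSF13B, which had 8 to 44 counts per library. The causes of the shifts above and of these SEs were not tested.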
